A study of Homo sapiens with 4 samples.

Results

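The plasma membrane amino acid transporters described here are SLC7A1, SLC7A2, SLC7A5, SLC7A6, SLC7A11, SLC3A2, SLC1A4, SLC1A5, SLC38A1 and SLC38A2. These 10 genes were chosen by function with earlier log2 differences from mock on the same arrays in view, among them the large fall of SLC7A2 with the intact duplex. The differences from mock below are therefore a description of these genes and not a test of why they were picked. Of the 10 genes, 9 were measured, out of 19798 genes on the array with a probe set of their own, and they were read by 23 of 35184 single-gene probe sets. SLC3A2 was not analysed here, since no probe set was assigned to it alone in the annotation used. RNA levels were read on 4 single-colour arrays. All cells were HCT-116, an established human colorectal cancer line, and all carried the label dicer-, which refers to the RNase that releases mature microRNAs, with the nature of the change left unstated. At 24 h, 1 array read cells that had received 10 nM of miR-124 G10.12/P, a duplex with its guide in segments, 1 read cells that had received 10 nM of miR-124 G/P, the same duplex with the guide unbroken, and 2 read mock transfections. The series asks how far activity of a microRNA through its seed, the 5′ part that pairs with messenger RNAs, is kept when the guide is segmented.

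Median intensities over all probe sets lay between 42.6 and 46.3 on the 4 arrays. Each duplex has a single array and no replicate check. The limma fit over all genes takes its spread from the mock pair (1 residual degree of freedom), as if a lone duplex array varied as much. Separate cultures are not mentioned for the mock pair, and the spread behind each p-value may therefore be technical. A gene is said to have passed where its limma adjusted p was under 0.05 over 19798 genes, and levels are log2 intensities of the brightest probe set unless stated. Of 9 measured colon epithelial markers, 5 lay above the median gene level of 6.76 (EPCAM, KRT18, KRT19, CDH1 and CDX2), and KRT20, VIL1, CDX1 and LGALS4 lay below it. Of 10 markers of other cell types, 8 lay below that median, and the exceptions were COL1A1 and ALB. The summed level of those 10 markers was 9.73 with the segmented duplex, 10.13 with the intact duplex and 9.40 and 9.24 on the mock arrays. COL1A1 rose with the intact duplex, to 9.76 against 8.56 ± 0.21 (SD, n = 2) in mock cells, and GFAP, far below the median level, stood at 2.80 against 3.50 ± 0.13. Of the colon markers CDH1 and CDX2 rose with the intact duplex. The part of these markers in the results below was not tested.

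Amino acids carry charged groups and cross the cell membrane through carriers of several families. The SLC7 cationic carriers take up arginine, lysine and ornithine by themselves. The other SLC7 members here are light chains that work bound to the heavy chain SLC3A2, exchanging one amino acid for another. The SLC1 members are sodium-dependent exchangers of small neutral amino acids and glutamine, and the SLC38 members bring in small neutral amino acids together with sodium. Several of these genes are switched on when amino acids run short, when the kinase EIF2AK4 leads to more of the transcription factor ATF4, which binds C/EBP-ATF response elements.

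The start-site regions of the transporters are given here because such an element is a known control point of the family. RefSeq windows (GRCh38.p14, 250 bases before to 50 after a start) matched 8 of the 10 genes, with 14 windows in all. SLC7A2 and SLC7A11 had no window and were not searched. The core letters TGATGNAA, read on both strands, stood in 5 of those 14 windows, against 3.62% of 35116 windows of all genes, and the 5 windows belonged to SLC7A1, SLC1A4, SLC1A5, SLC38A1 and SLC3A2. The matches are a description of letters and not of binding. The 3 windows below show the core (in capitals) in a cationic carrier that fell with the intact duplex, in the neutral exchanger whose probe sets disagreed, and in a sodium-coupled carrier that stayed near its mock level. The SLC7A1 window lies at chr13:29595639-29595938 on the minus strand, and its core begins at base 8 of the transcript. The SLC1A4 window lies at chr2:64989149-64989448 on the plus strand. Its core is on the opposite strand, and the match as printed in the window starts at base -7. The SLC38A1 window lies at chr12:46266467-46266766 on the minus strand, and its core begins at base -4.
SLC7A1: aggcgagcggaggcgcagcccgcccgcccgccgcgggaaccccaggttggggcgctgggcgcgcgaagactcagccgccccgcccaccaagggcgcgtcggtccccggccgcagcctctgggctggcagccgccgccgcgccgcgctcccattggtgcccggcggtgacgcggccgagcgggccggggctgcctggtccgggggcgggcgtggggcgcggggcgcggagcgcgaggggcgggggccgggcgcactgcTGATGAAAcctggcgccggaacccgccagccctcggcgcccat
SLC1A4: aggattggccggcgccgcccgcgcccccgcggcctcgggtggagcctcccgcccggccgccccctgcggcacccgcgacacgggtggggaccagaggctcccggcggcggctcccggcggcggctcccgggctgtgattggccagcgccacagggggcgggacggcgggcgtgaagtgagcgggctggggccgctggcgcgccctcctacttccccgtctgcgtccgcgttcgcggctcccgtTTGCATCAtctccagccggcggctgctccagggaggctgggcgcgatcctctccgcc
SLC38A1: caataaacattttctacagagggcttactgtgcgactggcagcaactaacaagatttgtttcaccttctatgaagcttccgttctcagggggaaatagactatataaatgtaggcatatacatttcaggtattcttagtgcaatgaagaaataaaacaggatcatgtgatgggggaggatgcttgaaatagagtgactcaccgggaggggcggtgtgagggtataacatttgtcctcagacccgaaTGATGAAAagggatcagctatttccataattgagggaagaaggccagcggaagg
Other letters searched on both strands were the GC box GGGCGG, found in 10 of the 14 windows against 45% of all windows, and the CCAAT box CCAAT, in 4 of 14 against 34.6%. The E-box CACGTG stood in 2 of 14 windows, of SLC7A5 and SLC1A5, against 7.26% of all windows, and the antioxidant response core TGACNNNGC in 5 of 14 against 13.3%. No match of one motif overlapped a match of another in the windows of these genes.

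SLC7A2 was lower with both duplexes than in mock cells. With the intact duplex the other cationic carrier and 2 of the exchanger light chains were lower as well, and the glutamine and small neutral amino acid carriers lay within 0.41 log2 units of mock by their brightest probe sets. With the segmented duplex SLC7A2 alone passed, 1 of 9 transporters, against 2.68% of all genes called lower, 3.31% called higher and 5.99% in either direction. With the intact duplex SLC7A2, SLC7A1, SLC7A6 and SLC7A5 passed, all lower, which is 4 of 9 transporters, against 10.4% of all genes called lower, 14.5% called higher and 24.9% in either direction. At an unadjusted limma p under 0.05 stood 5 of 9 transporters with the segmented duplex, against 27.4% of all genes, and 5 of 9 with the intact duplex, against 39.5% of all genes. The same contrasts were in view when the genes were listed, so nothing is read from these shares. The segmented count depends on the fit and was between 2 and 6 under 5 of 6 other settings. When the arrays were centred on their medians the split over all genes turned to 1256 lower and 593 higher, in place of 531 and 655, with the segmented duplex, and to 4080 lower and 1990 higher, in place of 2064 and 2873, with the intact duplex. Centring lowered every difference from mock by 0.19 with the segmented duplex and by 0.24 with the intact duplex. The median over all genes was then -0.18 with the segmented and -0.23 with the intact duplex. The arrays read whole cultures, so fewer cells with a transcript and less transcript per cell cannot be told apart.

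**Figure D1:**
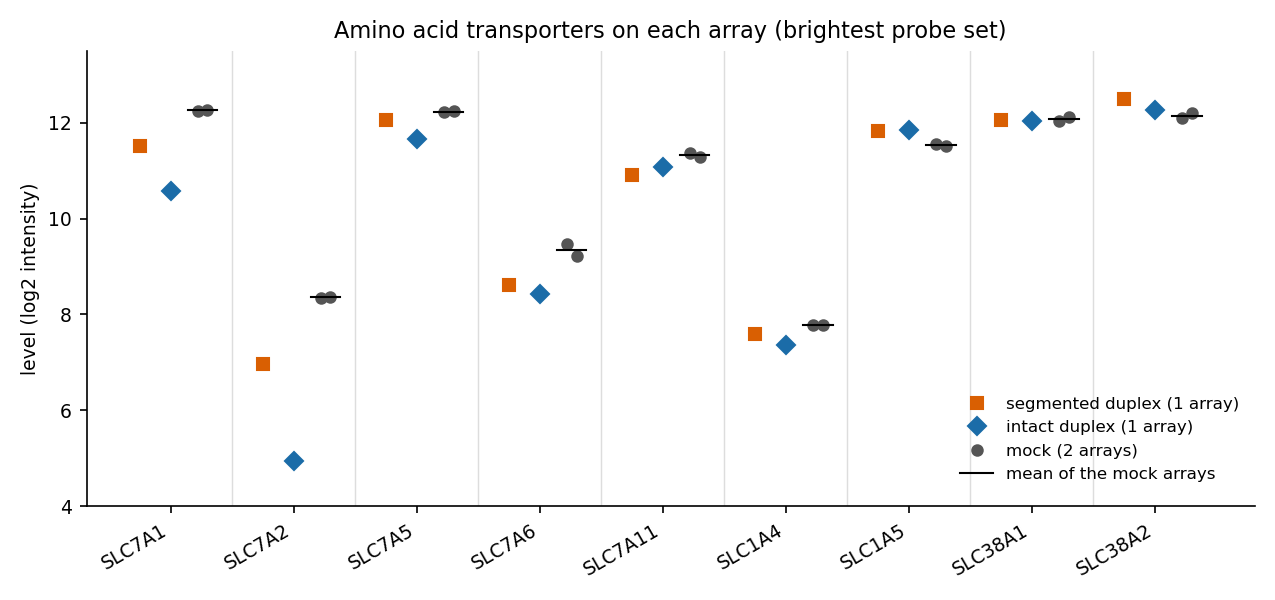
Level (log2 intensity) of the brightest probe set of each of the 9 measured transporters on each array, with 1 array of the segmented duplex, 1 of the intact duplex and 2 mock arrays, whose mean is the line. SLC7A2 stands furthest below mock with both duplexes, followed by SLC7A1 with the intact duplex. With the segmented duplex SLC7A1 and SLC7A6 follow about alike (-0.74 and -0.73), while SLC38A1 lies at its mock level. Levels of different genes come from different probes and are not comparable with each other.

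SLC7A2 encodes a cationic amino acid transporter that supplies arginine, among others to nitric oxide synthesis in macrophages. Its single probe set had an intensity of 125 with the segmented duplex and 30.7 with the intact duplex, against 325 and 331 on the mock arrays. Both duplex arrays lay far below the mock pair, which differed by 0.03 log2 units, and the intact array was the lowest. The level was 6.96 with the segmented and 4.94 with the intact duplex, against 8.36 ± 0.02 (SD, n = 2) in mock cells. These are log2 differences of -1.39 and -3.42 (limma SE 0.12 each), or 2.62-fold and 10.7-fold lower. The intact fall was the eleventh from the bottom among 19798 genes (rank 11), and the segmented fall stood at rank 151. With the intact duplex the level lies under the median gene level of 6.76 and no detection call was used here; the share of background in the intensity of 30.7 was not tested. With 16 added to every intensity before the logarithm, the intact difference was -2.88 and the segmented one -1.29.

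SLC7A1, the widely expressed cationic amino acid transporter that carries most arginine and lysine uptake in many cell types, was read by 3 probe sets. The brightest had 2930 with the segmented and 1522 with the intact duplex, against 4856 and 4912 in mock cells. The level was 11.52 and 10.57 with the segmented and the intact duplex, against 12.25 ± 0.01 (SD, n = 2) in mock cells, differences of -0.74 and -1.68 (limma SE 0.12). The second probe set had 637 with the segmented and 328 with the intact duplex, against 1451 and 1416 in mock cells. The third had 46.1 with the segmented and 41.4 with the intact duplex, against 106 and 99.2 in mock cells. All 3 lay below both mock arrays with both duplexes, with differences between -0.74 and -1.17 for the segmented and between -1.31 and -2.13 for the intact duplex. The brightest probe set missed the threshold with the segmented duplex. It passed there with the arrays centred, with the dimmest 40% of genes left out, with the trended prior, with 16 added, and with the mean of the probe sets, which gave -1.02. It did not pass after a further quantile normalization.

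Of the light chains that pair with SLC3A2, SLC7A6 and SLC7A5 were lower with the intact duplex and SLC7A11 did not pass with either. SLC7A6 exchanges arginine and lysine for neutral amino acids with sodium. Its brightest probe set had 390 with the segmented and 345 with the intact duplex, against 711 and 594 in mock cells. Both duplex arrays lay below the mock pair, which stood further apart than for any other of the transporters, by 0.26 log2 units. The level was 8.61 and 8.43 with the segmented and the intact duplex, against 9.34 ± 0.18 (SD, n = 2) in mock cells, differences of -0.73, which missed the threshold, and -0.91, which passed (limma SE 0.17). The segmented one passed with the arrays centred, with the dimmest genes left out, with the trended prior and with 16 added. The other 3 probe sets of SLC7A6 also lay below both mock arrays, at -0.45 to -0.85 with the segmented and -0.85 to -1.18 with the intact duplex. Against a single mock array the segmented difference was -0.60 (mock 2) or -0.87 (mock 1), and the intact one -0.78 or -1.04.

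SLC7A5 carries leucine and other large neutral amino acids in exchange for glutamine. Its brightest probe set had 4237 with the segmented and 3241 with the intact duplex, against 4779 and 4838 in mock cells. The level of 12.05 with the segmented duplex lay 0.18 below the mock mean of 12.23 ± 0.01 (SD, n = 2) and did not pass, and the level of 11.66 with the intact duplex lay 0.57 below it and passed (limma SE 0.12). The dimmer probe set, at 59.6 with the segmented and 52.5 with the intact duplex against 70.4 and 68.0 in mock cells, stood on the same side. With the mean of both probe sets the intact difference was -0.48 and missed the threshold.

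SLC7A11 is xCT, the carrier that brings in cystine for glutathione synthesis in exchange for glutamate. Its single probe set had 1914 with the segmented and 2172 with the intact duplex, against 2644 and 2480 in mock cells. Both duplex arrays lay below both mock arrays, and SLC7A11 was the 1 transporter of the 7 with negative differences for which the segmented array was the lower. The differences were -0.42 and -0.24 (limma SE 0.13), and neither passed. The segmented one passed with the dimmest genes left out, with the trended prior and with 16 added, and the intact one with the trended prior.

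**Figure D2:**
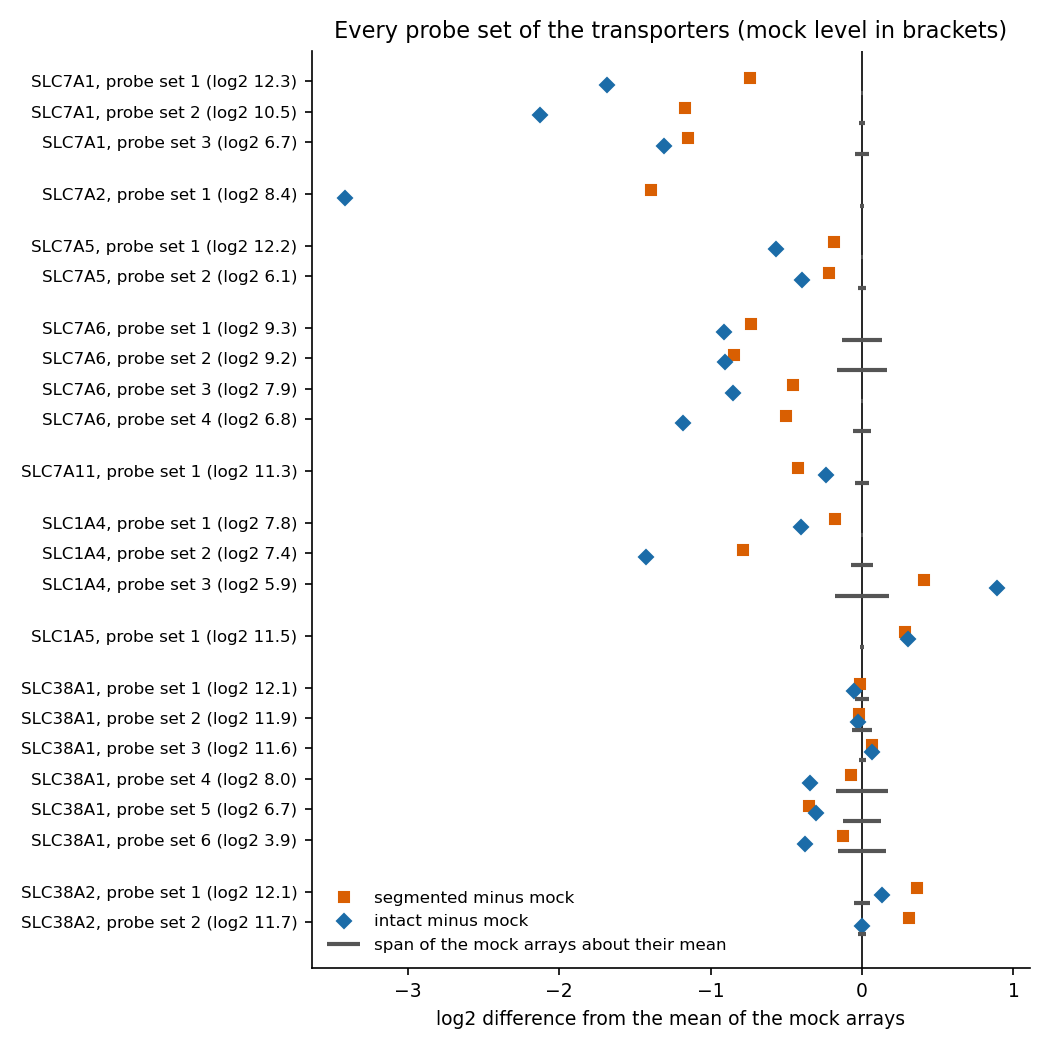
Log2 difference from the mean of the mock arrays for each of the 23 probe sets, numbered by brightness within a gene, with the mock mean in brackets, and grey bars for the span of the mock arrays. The probe sets of SLC7A1, SLC7A5 and SLC7A6 lie below 0 with both duplexes, while the 3 of SLC1A4 fall on both sides of 0.

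By their brightest probe sets the SLC1 exchangers did not pass with either duplex, and the probe sets of SLC1A4 did not go one way. SLC1A4 carries alanine, serine and cysteine. Its brightest probe set had 194 with the segmented and 166 with the intact duplex, against 219 and 220 in mock cells, differences of -0.18 and -0.41 (limma SE 0.12) that did not pass. The second had 97.6 with the segmented and 62.6 with the intact duplex, against 160 and 177 in mock cells, or -0.79 and -1.43. The third had 78.9 with the segmented and 110 with the intact duplex, against 67.0 and 52.5 in mock cells, or 0.41 and 0.89. The intact array was thus the lowest of the 4 on the first and second probe sets and the highest on the third, and SLC1A4 is uncertain for that reason. Its brightest probe set passed with the intact duplex after a further quantile normalization (-0.61) and with the arrays centred (-0.65), and also with the dimmest genes left out, with the trended prior and with 16 added.

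SLC1A5, the main glutamine exchanger of many tumour cells, was on the other side of mock. Its single probe set had 3611 with the segmented and 3663 with the intact duplex, against 2986 and 2941 in mock cells. Both duplex arrays lay above the mock pair and close to each other. The differences were 0.29 and 0.31 (limma SE 0.12), neither passed, and with the arrays centred they were 0.092 and 0.062. The intact one passed with the dimmest genes left out and both passed with the trended prior.

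Of the SLC38 sodium-coupled carriers neither passed with either duplex. SLC38A1 had 6 probe sets, and the brightest had 4284 with the segmented and 4174 with the intact duplex, against 4189 and 4476 in mock cells. Its differences were -0.02 and -0.05 (limma SE 0.13), and the segmented one changed sign, to 0.023, after a further quantile normalization and, to 0.032, without mock array 2. The 3 brightest probe sets lay between -0.05 and 0.07 with both duplexes, and the 3 dimmest between -0.07 and -0.37. SLC38A2, which is induced by amino acid shortage, had 5807 with the segmented and 4946 with the intact duplex, against 4351 and 4681 in mock cells. The segmented array was the highest on both of its probe sets, at 0.36 and 0.31, and the intact difference of 0.13 on the brighter one became -0.11 with the arrays centred. Neither difference of SLC38A2 passed, and the segmented one did so with the dimmest genes left out and with the trended prior.

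Over the 9 transporters the median log2 difference from mock was -0.18 with the segmented and -0.41 with the intact duplex, against 0.01 and 0.02 over all genes. The segmented array lay below both mock arrays for 6 of 9 transporters and above both for 2 (37.5% and 42% of all genes), and for SLC38A1 it lay between them (20.5% of all genes). The intact array lay below both for 7 and above both for 2 (39.8% and 44% of all genes), with 16.2% of all genes between them. The median absolute difference between the mock arrays was 0.03 over the transporters and 0.12 over all genes. At least 1.5-fold below both mock arrays were SLC7A1, SLC7A2 and SLC7A6 with each duplex, 3 of 9 transporters, against 4.89% of all genes with the segmented and 9.52% with the intact duplex. No transporter lay as far above both, against 7.37% of all genes with the segmented and 13.7% with the intact duplex. Both duplexes are set against the same mock arrays, so the sides they share are not independent of each other.

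**Figure D3:**
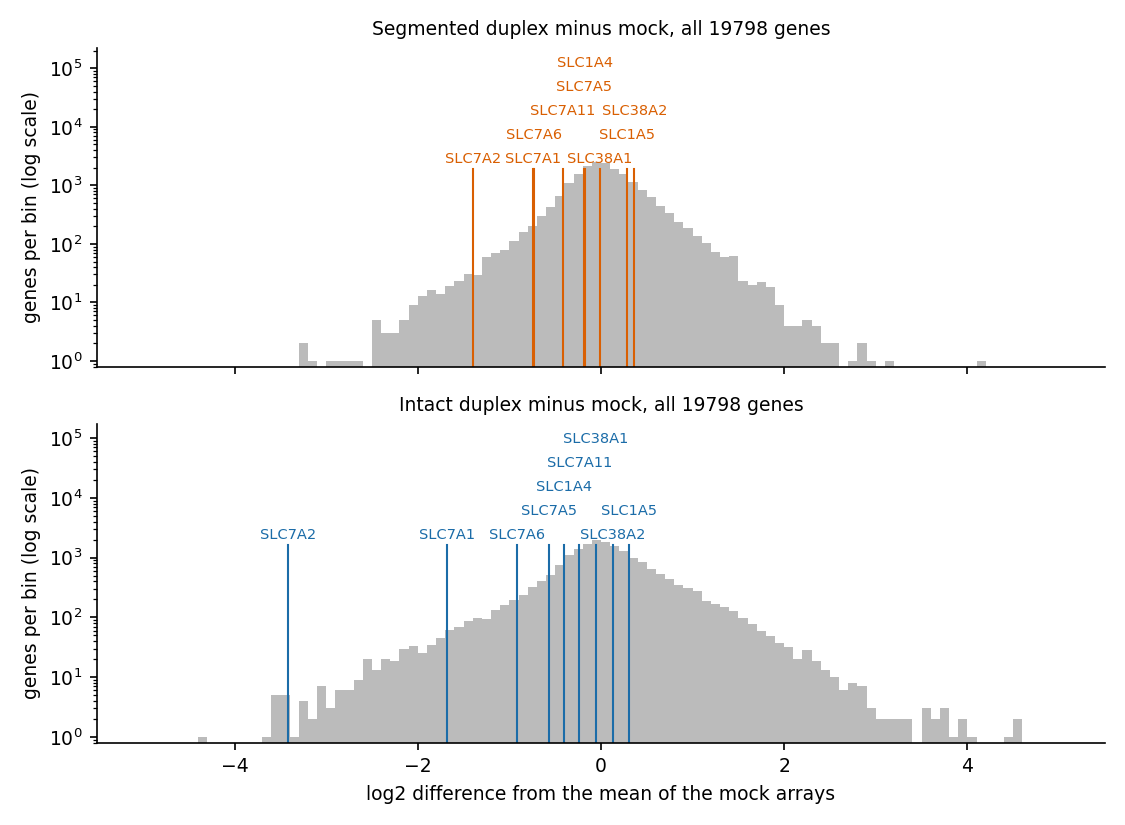
Number of genes (log scale) by log2 difference from the mean of the mock arrays, for the segmented duplex above and the intact duplex below, with a line at each transporter. SLC7A2 lies in the lower tail with the intact duplex (-3.42), and the spread of all genes is wider with the intact than with the segmented duplex.

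Set directly against each other, the duplexes left SLC7A2 and SLC7A1 furthest apart. The segmented array was 4.07-fold above the intact array for SLC7A2 (log2 2.02, limma SE 0.14) and 1.93-fold above it for SLC7A1 (0.95, SE 0.14). The other transporters lay between -0.18 (SLC7A11) and 0.39 (SLC7A5). By limma 0 of 9 transporters passed this comparison, as did 0 of 19798 genes (0% called), and 2 transporters, SLC7A1 and SLC7A2, had an unadjusted p under 0.05, against 3273 genes (16.5%). This comparison has no replicate on either side. The count was 2 transporters with the dimmest 40% of genes left out or with 16 added, and 3 with the trended and robust prior. Under these settings, in that order, 1850 of the 11879 genes left, 1138 genes and 2412 genes passed.

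Among 9898 other genes above the median level, those whose values over the 4 arrays lay nearest to SLC7A2, each gene centred on its mock mean, were CDK2 at a distance of 0.14 log2 units, FAM111B at 0.29, MYCBP at 0.44, DTL at 0.45 and CCNE2 at 0.45. CDK2, the nearest, stood at 9.71 with the segmented and 7.86 with the intact duplex, against 11.23 and 11.16 on the mock arrays. Its differences of -1.49 and -3.33 lay beside -1.39 and -3.42 for SLC7A2. With 4 arrays, 2 of them mock, such nearness rests mostly on the 2 duplex differences, and the gap between the mock arrays counts as well.

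Of 25 other measured plasma membrane amino acid transporters, 2 fell and 1 rose with the segmented duplex, while with the intact duplex 4 were lower, 3 were higher and 18 missed the threshold. Over all genes 5.99% were called in either direction with the segmented and 24.9% with the intact duplex. SLC1A3, a glutamate and aspartate carrier, had 7.90 with the segmented and 7.30 with the intact duplex, against 8.94 ± 0.02 (SD, n = 2) in mock cells, with differences of -1.05 and -1.64 (limma adjusted p = 0.0386 and 0.00873). SLC1A1, the carrier of the same amino acids in epithelia and neurons, went the other way, with 9.77 and 10.44 against 8.86 ± 0.02, and rose by 0.92 and 1.59 (limma adjusted p = 0.043 and 0.00895). SLC38A5, a glutamine carrier, fell by 0.83 with the segmented and by 1.11 with the intact duplex. SLC43A2, a large neutral amino acid carrier, rose by 1.06 with the intact duplex (limma adjusted p = 0.0191) and stood at 0.19 with the segmented one. The median of these 25 genes was -0.02 with the segmented and -0.00 with the intact duplex, or -0.21 and -0.25 with the arrays centred. All genes together had centred medians of -0.18 and -0.23. Only 12 of the 25 were left without the dimmest genes, with medians of -0.02 and 0.16. Of these 12, 2 were lower and 2 higher with the segmented duplex, and 3 lower and 4 higher with the intact one. Of all 11879 genes left, 4781 and 6950 passed. SLC7A9, SLC1A7 and SLC6A20, which passed with the intact duplex, had low mock levels of 4.19, 4.94 and 3.70.

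Another list holds lysosomal amino acid carriers and proteins that report amino acid supply to the growth kinase complex mTORC1. Of 24 measured, the segmented duplex gave 4 higher and 0 lower, against 3.31% and 2.68% of all genes, and the intact duplex 9 higher and 3 lower, against 14.5% and 10.4% of all genes. The 3 lower genes were all lysosomal carriers, CTNS (-0.79), SLC36A1 (-0.68) and SLC15A4 (-0.63). Of the carriers only SLC38A7 passed higher with the intact duplex (0.81). The medians were 0.42 with the segmented and 0.41 with the intact duplex, against 0.01 and 0.02 over all genes. Centring moved the medians over all genes to -0.18 and -0.23 and the counts over all genes as given above. With the arrays centred the medians were 0.22 and 0.17, and 3 fell and 4 rose with the segmented, 3 fell and 6 rose with the intact duplex. The trended prior gave 3 lower and 14 higher with the segmented and 3 lower and 17 higher with the intact duplex. With 16 added the counts were 3 lower and 12 higher with the segmented and 3 lower and 14 higher with the intact duplex. Among 23 genes left without the dimmest they were 3 and 13, and 3 and 15. Over all 19798 genes the trended prior called 2035 lower and 3380 higher with the segmented duplex, and 3143 and 4666 with the intact one. With 16 added it was 1617 lower and 2662 higher with the segmented duplex, and 2778 and 4244 with the intact one. Of the 11879 genes left without the dimmest, 1814 were lower and 2967 higher with the segmented duplex, and 2848 and 4102 with the intact one. The sestrins SESN1, SESN3 and SESN2, of which SESN2 is a leucine sensor and SESN1 and SESN2 are p53 targets, were among the highest. SESN1 had 10.15 with the segmented and 10.94 with the intact duplex, against 8.63 and 8.77 in mock cells. SESN3 had 9.97 with the segmented and 10.26 with the intact duplex, against 8.10 and 8.34 in mock cells, and rose by 1.75 and 2.04 (limma adjusted p = 0.0354 and 0.00904). SESN2 had 9.61 with the segmented duplex, 0.96 above mock with a limma adjusted p of 0.0529, and 10.22 with the intact duplex, where it rose by 1.57. CASTOR2, a relative of the arginine sensor CASTOR1, rose by 1.04 with the intact duplex and stood at 0.69 with the segmented one. Of the 2 probe sets of CASTOR2, 1 had the opposite sign with the segmented duplex. CASTOR1 itself, at a low mock level of 5.45, rose by 0.82 with the segmented duplex and stood at 0.19 with the intact one. SAMTOR, of the same list, rose by 1.01 with the segmented and by 0.98 with the intact duplex.

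The amino acid response list, the kinase EIF2AK4 and genes linked to ATF4 activity when amino acids are scarce, had 25 measured members, and ATF4 itself was not analysed here. With the segmented duplex 2 were lower and 0 higher, against 5.99% of all genes called in either direction, and with the intact duplex 6 were lower and 2 higher, against 24.9%. The medians were -0.11 with the segmented and -0.02 with the intact duplex, against 0.01 and 0.02 over all genes. Centring moved the medians over all genes to -0.18 and -0.23 and the counts over all genes as given above. With the arrays centred 6 were lower with the segmented duplex, 9 were lower and 2 higher with the intact one, and the medians were -0.30 and -0.26. PYCR1, the last enzyme of proline synthesis, had 9.73 with the segmented and 9.15 with the intact duplex, against 10.84 ± 0.07 (SD, n = 2) in mock cells, with differences of -1.11 and -1.70 that both passed. EIF4EBP1, a repressor of translation held off by mTORC1, stood at -0.65 with the segmented duplex and fell by 1.66 with the intact one. TRIB3, a pseudokinase that dampens ATF4, fell with both duplexes, to 8.25 with the segmented and 7.39 with the intact one, against 9.19 ± 0.04 in mock cells. DDIT4, an inhibitor of mTORC1, rose by 1.18 with the intact duplex, to 11.28 against 10.09 ± 0.06. The response genes ASNS, DDIT3 and CHAC1, chosen after their values were seen, did not pass. ASNS stood at -0.09 with the segmented and -0.04 with the intact duplex, DDIT3 at -0.26 and -0.08 and CHAC1 at -0.67 and 0.02. Other response genes did pass with the intact duplex. MTHFD2 (-0.82), STC2 (-0.83) and ATF5 (-0.85) were lower and CBS (1.05) was higher. ATF5 and CBS had low mock levels of 4.58 and 2.74. With the trended prior the counts were 8 lower and 1 higher for the segmented and 9 lower and 3 higher for the intact duplex. With 16 added they were 6 lower and 1 higher for the segmented and 9 lower and 2 higher for the intact duplex. Among 20 genes left without the dimmest they were 7 and 2, and 8 and 1. Many more of all genes passed under these settings too. With the trended prior 5415 of 19798 passed for the segmented and 7809 for the intact duplex, and with 16 added 4279 and 7022. Of the 11879 genes left without the dimmest, 4781 and 6950 passed.

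The cytosolic aminoacyl-tRNA synthetases, which load amino acids onto transfer RNAs, gave no change past the threshold. Of 19 measured, 0 passed with either duplex by limma, against 5.99% of all genes with the segmented and 24.9% with the intact duplex. An unadjusted limma p under 0.05 was found for 0 with the segmented and 3 with the intact duplex, against 27.4% and 39.5% of all genes. Their differences spanned -0.32 to 0.25 with the segmented and -0.42 to 0.44 with the intact duplex. With the trended prior 3 were lower and 1 higher with the segmented duplex, and 4 lower and 4 higher with the intact one. Of all 19798 genes 5415 and 7809 passed there. With the dimmest genes left out, and also with 16 added, 0 passed with the segmented duplex. With the intact one 2 were lower and 1 higher under each setting. Of the 11879 genes left without the dimmest, 4781 and 6950 passed, and with 16 added 4279 and 7022 of all genes. With the arrays centred 0 passed with the segmented duplex and 3 were lower with the intact one. Of all genes 1256 were then lower and 593 higher with the segmented, and 4080 lower and 1990 higher with the intact duplex.

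**Figure D4:**
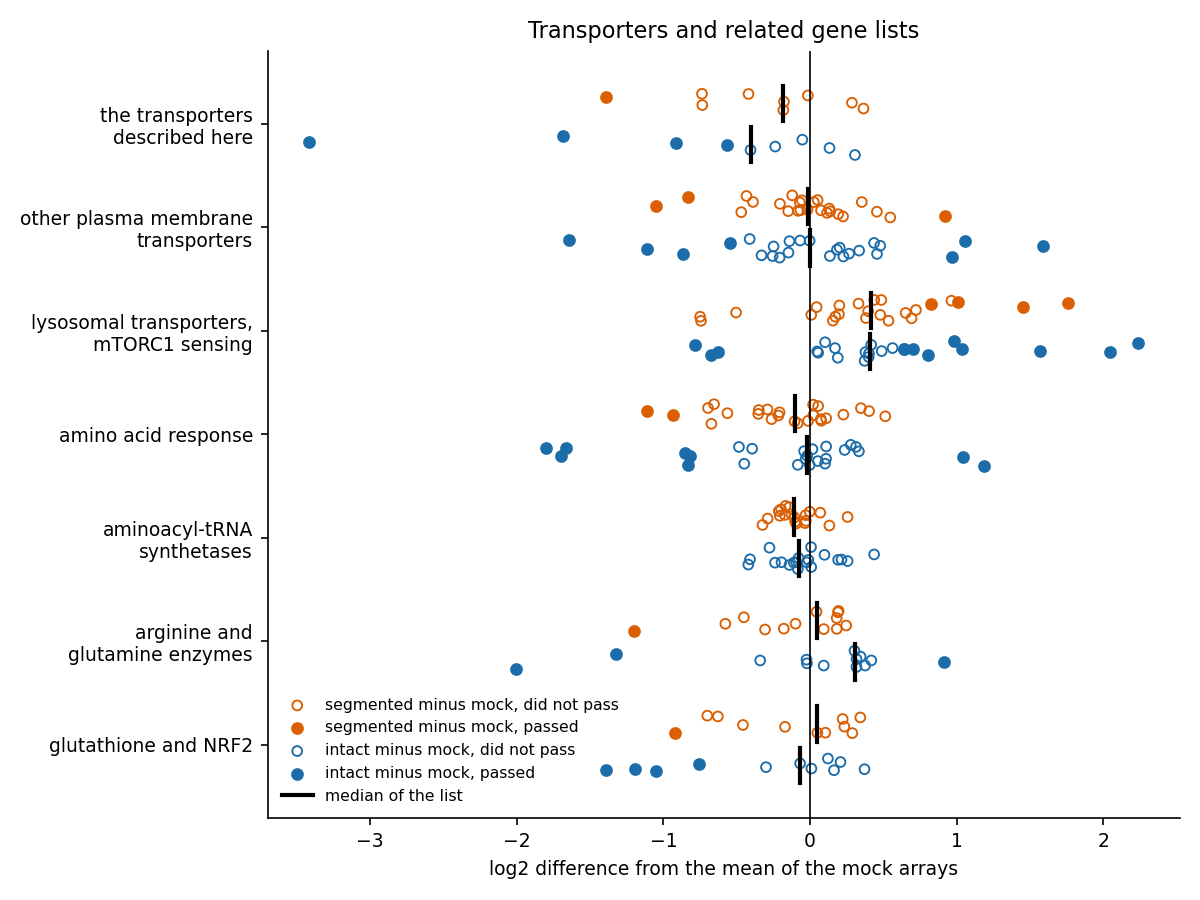
Log2 difference from the mean of the mock arrays for each gene of 7 lists, with the segmented above the intact duplex in each row, filled points for genes past the limma threshold and a bar at the list's median. The synthetases lie between -0.42 and 0.44, and the lysosomal and mTORC1 sensing list has its median at 0.42 and 0.41.

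A list of enzymes of arginine, glutamine and glutamate metabolism had 13 measured members. With the segmented duplex 1 was lower and 0 higher, against 5.99% of all genes called in either direction. With the intact duplex 2 were lower and 1 higher, against 24.9%. With the trended prior the intact counts were 3 lower and 5 higher, and among 9 enzymes left without the dimmest 3 lower and 6 higher. The segmented count was 2 lower and 0 higher under both settings and with 16 added, where the intact counts were 3 lower and 2 higher. Over all 19798 genes 5415 passed with the segmented and 7809 with the intact duplex under the trended prior, and 4279 and 7022 with 16 added. Of the 11879 genes left without the dimmest, 4781 and 6950 passed. GLUD1, glutamate dehydrogenase, had 10.35 with the segmented and 9.55 with the intact duplex, against 11.56 ± 0.03 (SD, n = 2) in mock cells, and fell with both (limma adjusted p = 0.0363 and 0.00824). NOS3, a nitric oxide synthase that uses arginine, stood at -0.45 with the segmented duplex and fell by 1.32 with the intact one. ASS1, which makes the precursor of arginine from citrulline, stood at 0.25 with the segmented duplex and rose by 0.91 with the intact one. The list's medians were 0.04 with the segmented and 0.30 with the intact duplex, or -0.15 and 0.059 with the arrays centred. All genes together had centred medians of -0.18 and -0.23. The intact median was 0.13 after a further quantile normalization and 0.11 with 16 added.

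Of 11 measured genes of glutathione synthesis and the antioxidant factor NRF2, 1 was lower with the segmented and 4 with the intact duplex, and 0 were higher with either, against 5.99% and 24.9% of all genes called in either direction. With the trended prior 5 were lower and 4 higher with the segmented duplex, and 5 lower and 2 higher with the intact one. The segmented duplex had 3 lower with the arrays centred, 2 with the mean of probe sets, 4 with 16 added, and 4 lower and 1 higher with the dimmest genes left out. Of all 19798 genes, the trended prior called 5415 with the segmented and 7809 with the intact duplex. With the segmented duplex 1849 genes passed with the arrays centred, 1363 with the mean of probe sets and 4279 with 16 added. Of the 11879 left without the dimmest, 4781 passed there. SRXN1, sulfiredoxin, had 10.73 with the segmented and 10.26 with the intact duplex, against 11.65 ± 0.04 (SD, n = 2) in mock cells, with differences of -0.92 and -1.39 that both passed. HMOX1, heme oxygenase, fell by 1.19 with the intact duplex and stood at -0.70 with the segmented one. GCLM and GSS, of glutathione synthesis, stood at -0.46 and -0.63 with the segmented duplex, and their intact differences of -1.05 and -0.76 passed. The medians were 0.05 with the segmented and -0.07 with the intact duplex, or -0.14 and -0.31 with the arrays centred. All genes together had centred medians of -0.18 and -0.23.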

How the data were processed

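The deposited values are linear intensities between 2.51 and 22268, 1 for each probe set of an array, made by the authors with RMA per the submitters' processing notes. Quantile normalization within RMA removes a change common to most genes. Total RNA was amplified to biotin-labelled cRNA, per the labels' protocols.

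Nothing was added before log2. Names came from the platform annotation and Entrez identifiers matched to RefSeq (35134 matched, 50 kept their name): 35184 of 52377 had 1 gene, 374 several, and 16819 were not listed or had none. The brightest probe set by mean stood for a gene. The fit used limma 3.58.1 under R 4.3.3 (3 group means over 4 arrays, eBayes, prior of 2.89 degrees of freedom) at a Benjamini-Hochberg adjusted p of 0.05, and was tested on simulated data.

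The transporters and the 6 lists beside them were chosen with earlier results of these data known. Each list names up to 4 genes with the largest intact difference among those that passed with either duplex. Some lists name further genes beside these, chosen with their values known. The alternatives were a further quantile normalization, median centring, leaving out the dimmest 40% of genes, a trended and robust prior, the mean of all probe sets, 16 added to each intensity, and leaving out each mock array.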

Additional observations from a re-analysis of the deposited data

How the results depend on the processing

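The differences of the 9 transporters in 3 comparisons were followed under 8 alternatives. Of these, 181 kept their direction and their side of the threshold or, without a test, moved by no more than the mock SD. A further 30 now passed, 1 (SLC7A5 with the intact duplex and the mean of probe sets) no longer passed and 4 changed sign. Leaving out 1 of the 2 mock arrays cannot move a difference by more than the mock SD, so only a sign could change there. The difference between the duplexes uses no mock array and stays as it is there, so these entries say nothing of stability. The sign changes were SLC38A1 with the segmented duplex (0.023 after a further quantile normalization, and from -0.063 to 0.032 with a mock array left out, the second value without mock array 2), SLC38A2 with the intact duplex (-0.11 with the arrays centred) and SLC1A5 between the duplexes (0.030 with the arrays centred). Centring lowers all differences from mock alike and raises all segmented minus intact differences by 0.05. The segmented level of SLC38A1 lay between its mock arrays, so its sign there depends on which mock array is kept. The cause of the change after a further quantile normalization was not tested. The transporters past the threshold with the segmented duplex, 1 as reported, numbered 3 with the arrays centred, 5 with the dimmest genes left out, 6 with the trended prior, 2 with the mean of probe sets and 4 with 16 added. With the intact duplex, 4 as reported, they numbered 5 after a further quantile normalization, with the arrays centred and with 16 added. They numbered 6 with the dimmest genes left out, 7 with the trended prior and 3 with the mean of probe sets. Between the duplexes they numbered 2 with the dimmest genes left out, 3 with the trended prior and 2 with 16 added, in place of 0. Over all 19798 genes the segmented count of 1186 was 1849 with the arrays centred, 5415 with the trended prior and 4279 with 16 added. With the dimmest genes left out it was 4781 of the 11879 genes left. The intact count of 4937 was 6070 with the arrays centred, 7809 with the trended prior and 7022 with 16 added. It was 6950 of 11879 with the dimmest genes left out. Between the duplexes the count was 1850 of 11879 with the dimmest left out, 2412 with the trended prior and 1138 with 16 added, in place of 0. The median over the transporters was -0.33 (segmented), -0.54 (intact) and 0.24 (segmented minus intact) after a further quantile normalization, -0.38, -0.65 and 0.28 with the arrays centred, -0.20, -0.31 and 0.27 with the mean of probe sets, and -0.37 (intact) and 0.21 (segmented minus intact) with 16 added. With the arrays centred the median over all genes was -0.18 (segmented), -0.23 (intact) and 0.03 (segmented minus intact). Leaving out a mock array leaves no residual degrees of freedom, so no count is given for it. No paired analysis was possible because each duplex has 1 array. Without detection calls, signal over background limits the values of SLC7A2 with the intact duplex and of the dimmer probe sets.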
